A study of Mus musculus with 6 samples.

Results

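The 7 genes described here encode enzymes of the pentose phosphate pathway, and 2 further cytosolic enzymes that make NADPH. They were chosen by symbol: Pgls, Pgd, Tkt, Taldo1, Rpia, Me1 and Idh1. Each symbol matched 1 of the 17567 gene rows of the count files by its NCBI Gene number. All 7 passed the filter on low counts, which left 12209 genes for testing.

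The transcripts were measured in mouse immature dendritic cells (imDC), the stage at which a dendritic cell samples antigen before maturation. In the H2O2 group, cells received hydrogen peroxide at 100 µM over 24 h, which imposes oxidative stress. The control group is labelled only as control, and the labels do not say whether it was kept in culture for the same 24 h. Cells of both groups were grown from bone marrow of male C57BL/6 mice aged 6 weeks, with 20 ng/mL GM-CSF plus 10 ng/mL interleukin-4 and 10% serum, taken on day 6 and enriched on beads for CD11c. The labels give neither the number of mice nor the origin of each sample, so the spread behind every p-value is that between libraries and may be purely technical.

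The pentose phosphate pathway has an oxidative branch, in which glucose 6-phosphate is oxidized and NADP+ is reduced to NADPH, and a non-oxidative branch, in which sugar phosphates are rearranged between ribose 5-phosphate and the intermediates of glycolysis. NADPH is the electron donor with which glutathione reductase and thioredoxin reductase keep peroxide-scavenging systems reduced. Phagocytes also spend NADPH in the oxidase that makes superoxide. Several genes of the pathway are known targets of NRF2, a transcription factor that drives antioxidant genes.

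Of the 6 samples, 3 in each group, the third H2O2 sample held the same 17567 values as the first, and the pair was counted as 1 library. The 5 distinct libraries, 2 H2O2 and 3 control, held between 16232604 and 16672491 estimated counts. They fell into 2 sets that the treatment does not explain. The Y-linked genes Ddx3y, Eif2s3y, Kdm5d and Uty summed to 96.4 CPM (counts scaled to a common library size) in H2O2 replicate 1 and 106 CPM in control replicate 1, which are called set A. They summed to at most 0.427 CPM in H2O2 replicate 2 and control replicates 2 and 3, which are called set B, although all mice were labelled male. Among 12 dendritic cell markers, Itgax, the CD11c gene, averaged 1848 CPM, whereas Cd209a stood at 0.085 CPM. The summed markers of T and natural killer cells, B cells and red cells each stayed at or below 2.78 CPM in every library.

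Of the 7 genes, 3 rose in H2O2-treated cells and none fell. They were Pgd, an NADPH-making enzyme of the oxidative branch, Taldo1, a carbon-transferring enzyme of the non-oxidative branch, and Me1, the cytosolic malic enzyme. The increases were 1.49-fold for Pgd, 1.33-fold for Taldo1 and 1.83-fold for Me1. Pgls, Tkt, Rpia and Idh1 were not called. The test was edgeR's quasi-likelihood test with a term for the set, over all 12209 genes, and a gene was called where its p, adjusted by Benjamini and Hochberg's method, did not exceed 0.05. That fit called 3.93% of all tested genes higher and 4.61% lower (480 and 563 genes, 8.54% in all); scaled to library totals alone, it called 384 and 910. Without the term for the set, edgeR called none of the 12209 genes (853 had an unadjusted p under 0.05), and the 3 genes each had an adjusted p of 0.704. Without H2O2 replicate 2 the fit with the term called 1 gene and none of the 7, without control replicate 3 it called 304 genes and 1 of the 7, and without control replicate 1 it called 2064 genes and 3 of the 7.

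In 3 of the 7 genes both H2O2 libraries lay above all 3 control libraries, and in the other 4 the groups overlapped. Both H2O2 libraries lay above the controls in 13% of all tested genes and below them in 10.7%. Library sizes behind the CPM values include TMM factors. Because bulk RNA was measured, fewer cells of a type and less RNA per cell cannot be told apart.

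**Figure D1:**
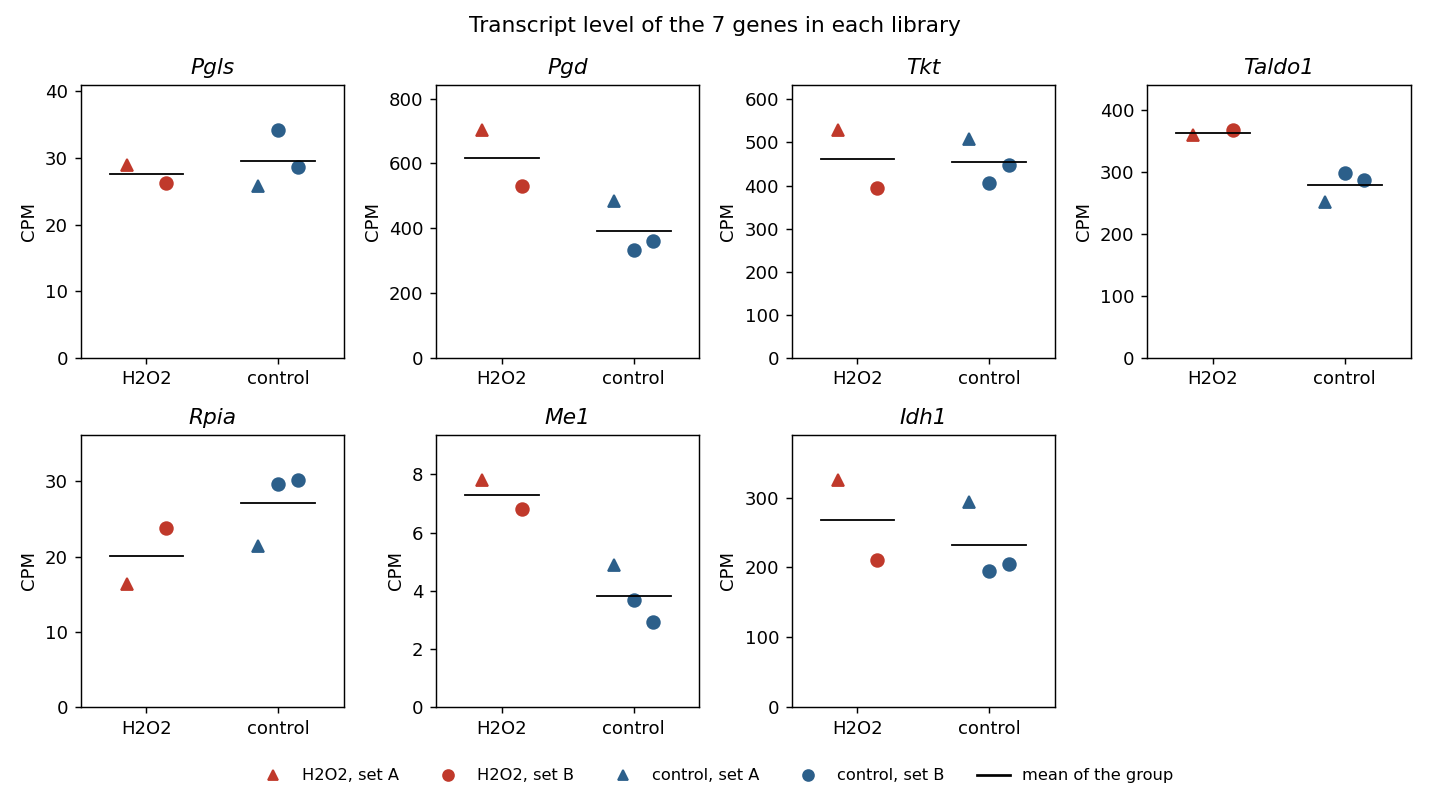
Transcript level (CPM, vertical axes from 0) of the 7 genes in the 2 H2O2 libraries and the 3 control libraries, with triangles for set A, circles for set B and a line at the group mean. The H2O2 points of Pgd, Taldo1 and Me1 lie above every control point.

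In the oxidative branch, Pgls encodes 6-phosphogluconolactonase, which opens the lactone made from glucose 6-phosphate (chromosome 8, 71592184 to 71596267). It had 28.9 and 26.2 CPM in H2O2 replicates 1 and 2, against 25.8, 34.1 and 28.7 CPM in control replicates 1, 2 and 3. The H2O2 libraries lay inside the range of the controls. The log2 change was -0.08 ± 0.133 (SE), with a 95% interval between -0.39 and 0.24. It was 0.16 within set A and -0.25 within set B, and the difference between the sets had an adjusted p of 0.437 by edgeR. The sign of the fitted change was positive without control replicate 2 (0.018) and without H2O2 replicate 2 (0.16).

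Pgd encodes 6-phosphogluconate dehydrogenase, which makes NADPH and releases ribulose 5-phosphate (chromosome 4, 149149991 to 149166705). It had 701.7 and 529.2 CPM in H2O2 replicates 1 and 2, against 483.6, 332.5 and 360.6 CPM in control replicates 1, 2 and 3. Both H2O2 libraries were above every control, and within each group the library of set A was the highest. Pgd averaged 615.4 ± 122 CPM in H2O2-treated cells (SD, n = 2) and 392.2 ± 80.3 CPM in control cells (SD, n = 3). It rose by 0.58 ± 0.071 (SE) on the log2 scale (95% interval 0.41 to 0.75; adjusted p = 0.0149 by edgeR). Set A alone gave 0.54 and set B alone 0.61. The adjusted p was 0.123 without H2O2 replicate 2.

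In the non-oxidative branch, Rpia encodes ribose-5-phosphate isomerase, which converts ribulose 5-phosphate to the ribose 5-phosphate used for nucleotides (chromosome 6, 70765720 to 70792175). It had 16.3 and 23.8 CPM in H2O2 replicates 1 and 2, against 21.4, 29.7 and 30.2 CPM in control replicates 1, 2 and 3. Each H2O2 library was below the controls of its own set, but the groups overlapped, because control replicate 1 lay below H2O2 replicate 2. The log2 change was -0.35 ± 0.092 (SE; 95% interval -0.57 to -0.14), with an adjusted p of 0.0622 by edgeR. It was -0.39 within set A and -0.33 within set B. Scaled to library totals without TMM factors, Rpia was called lower (log2 -0.42, adjusted p = 0.0367 by edgeR).

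Tkt encodes transketolase, which moves a carbon pair between sugar phosphates and needs thiamine diphosphate (chromosome 14, 30549131 to 30574724). It had 528.1 and 393.3 CPM in H2O2 replicates 1 and 2, against 508.0, 406.1 and 446.6 CPM in control replicates 1, 2 and 3. The H2O2 libraries were the highest and the lowest of the 5. The log2 change was -0.04 ± 0.080 (SE; 95% interval -0.23 to 0.15; adjusted p = 0.775 by edgeR); set A alone gave 0.06 and set B alone -0.11. The fitted value was 0.02 without the term for the set and 0.05 without H2O2 replicate 2.

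Taldo1 encodes transaldolase, which moves a dihydroxyacetone unit and links the branch to glycolysis (chromosome 7, 141392160 to 141402976). It had 359.5 and 367.2 CPM in H2O2 replicates 1 and 2, against 252.2, 298.2 and 286.8 CPM in control replicates 1, 2 and 3. The H2O2 libraries were nearly equal and above every control. Taldo1 averaged 363.4 ± 5.42 CPM in H2O2-treated cells (SD, n = 2) and 279.0 ± 24.0 CPM in control cells (SD, n = 3). It rose by 0.41 ± 0.074 (SE) on the log2 scale (95% interval 0.23 to 0.58; adjusted p = 0.0268 by edgeR); set A alone gave 0.51 and set B alone 0.33. The adjusted p was 0.101 without control replicate 3, 0.118 without H2O2 replicate 2 and 0.0560 with no filter on low counts.

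Outside the pathway, Me1 encodes the cytosolic malic enzyme, which makes NADPH while converting malate to pyruvate (chromosome 9, 86581363 to 86695914). It was scarce, with 132 and 105 counts in H2O2 replicates 1 and 2, against 84, 61 and 48 counts in control replicates 1, 2 and 3. As levels these were 7.80 and 6.80 CPM in the H2O2 libraries, against 4.88, 3.69 and 2.93 CPM in the controls, with no overlap. Me1 averaged 7.30 ± 0.709 CPM in H2O2-treated cells (SD, n = 2) and 3.83 ± 0.986 CPM in control cells (SD, n = 3). It rose by 0.87 ± 0.180 (SE) on the log2 scale (95% interval 0.45 to 1.30; adjusted p = 0.0350 by edgeR); set A alone gave 0.66 and set B alone 1.02. The adjusted p was 0.0540 without control replicate 2, 0.0961 without control replicate 3, 0.236 without H2O2 replicate 2, 0.0689 with no filter on low counts and 0.0814 by DESeq2 with the term for the set.

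Idh1 encodes the cytosolic and peroxisomal isocitrate dehydrogenase, which makes NADPH from isocitrate (chromosome 1, 65158616 to 65186479). It had 325.1 and 210.3 CPM in H2O2 replicates 1 and 2, against 294.0, 195.2 and 205.2 CPM in control replicates 1, 2 and 3. The libraries ordered by set rather than by treatment: both of set A were above all 3 of set B. The log2 change was 0.10 ± 0.068 (SE; 95% interval -0.06 to 0.26; adjusted p = 0.371 by edgeR), with 0.15 within set A and 0.07 within set B.

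**Figure D2:**
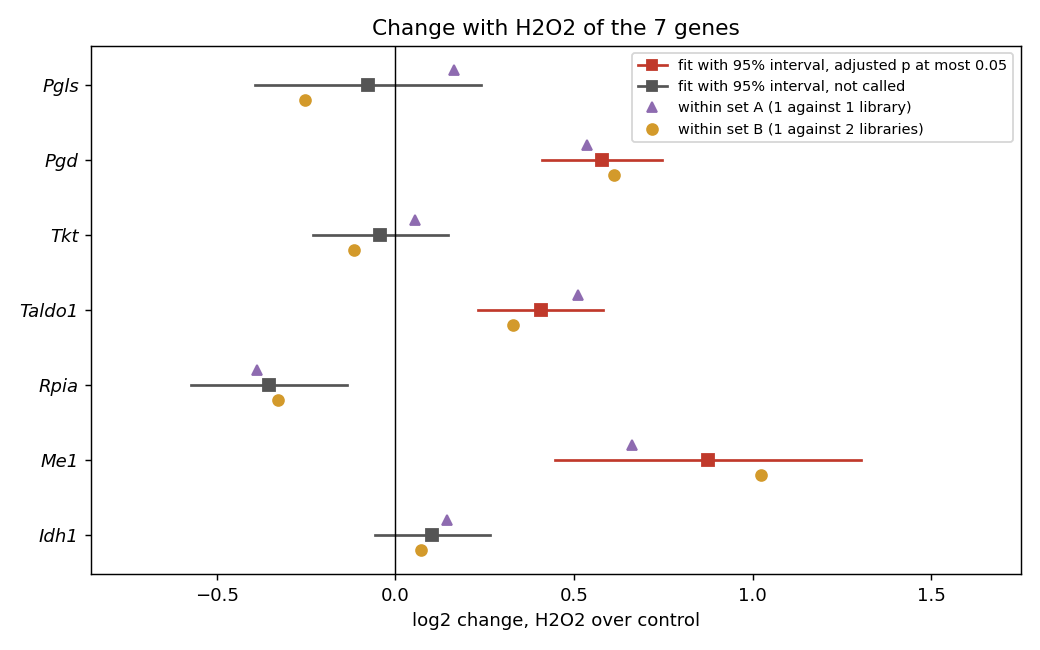
Log2 change with H2O2 over control (horizontal axis) for the 7 genes, with squares and bars for the fit and its 95% interval, triangles for the difference within set A and circles for that within set B. The intervals of Pgd, Taldo1, Me1 and Rpia do not cross 0, and the first 3 were called after adjustment; Pgls and Tkt have points on both sides of 0.

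The libraries also differed by set. In the same edgeR fit, Idh1 exceeded its set B level in set A by 0.59 ± 0.067 (SE), Pgd by 0.45 ± 0.071 and Tkt by 0.33 ± 0.079 on the log2 scale, with adjusted p-values of 9.57e-04, 0.00359 and 0.0189. Rpia was lower in set A, at -0.51 ± 0.092 (adjusted p = 0.00629 by edgeR). The set was thus called in 4 of the 7 genes, 3 higher and 1 lower in set A, against 36% of all tested genes, 19.1% higher and 16.9% lower. The change with H2O2 was not called as different between the sets for any of the 7 (2 of 12209 genes were, or 0.0164%), and 0 of the 7, against 1674 of all 12209 genes, had an unadjusted p under 0.05 in this edgeR fit, which had 1 residual degree of freedom.

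Levels were compared between genes as CPM per kilobase of exon, which spans all annotated transcripts of a gene. On this scale Taldo1 was the most abundant, with a mean of 144 over the 5 libraries (range 116 to 169). In CPM without this correction, Pgd and Tkt lay above Taldo1 in all 5 libraries, so its rank depends on the lengths used. These were 2171 bases for Taldo1, 6447 for Pgd and 7355 for Tkt, and which transcripts the cells used was not measured. Idh1 averaged 88.8 (70.5 to 117), Pgd 74.7 (51.6 to 109) and Tkt 62.1 (53.5 to 71.8) CPM per kb. The ranges of neighbours in this order overlapped as far as Tkt, and the order of Pgd differed between the groups. In H2O2 libraries Pgd averaged 95.5 ± 18.9 CPM per kb, beside Idh1 at 96.6 ± 29.3 and Tkt at 62.6 ± 13.0 (SD, n = 2). In controls Pgd averaged 60.8 ± 12.5 CPM per kb, beside Idh1 at 83.5 ± 19.6 and Tkt at 61.7 ± 6.98 (SD, n = 3). Pgls (mean 7.63, range 6.85 to 9.06), Rpia (mean 4.53, range 3.05 to 5.63) and Me1 (mean 1.36, range 0.761 to 2.03) followed, each below every value of the gene before it. Of the 3 NADPH-making enzymes Pgd, Idh1 and Me1, the last was thus the scarcest on this scale in all libraries. Its relative spread was also the widest of the 7, with the highest library 2.67 times the lowest in CPM, against 1.32 times for Pgls, the narrowest.

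**Figure D3:**
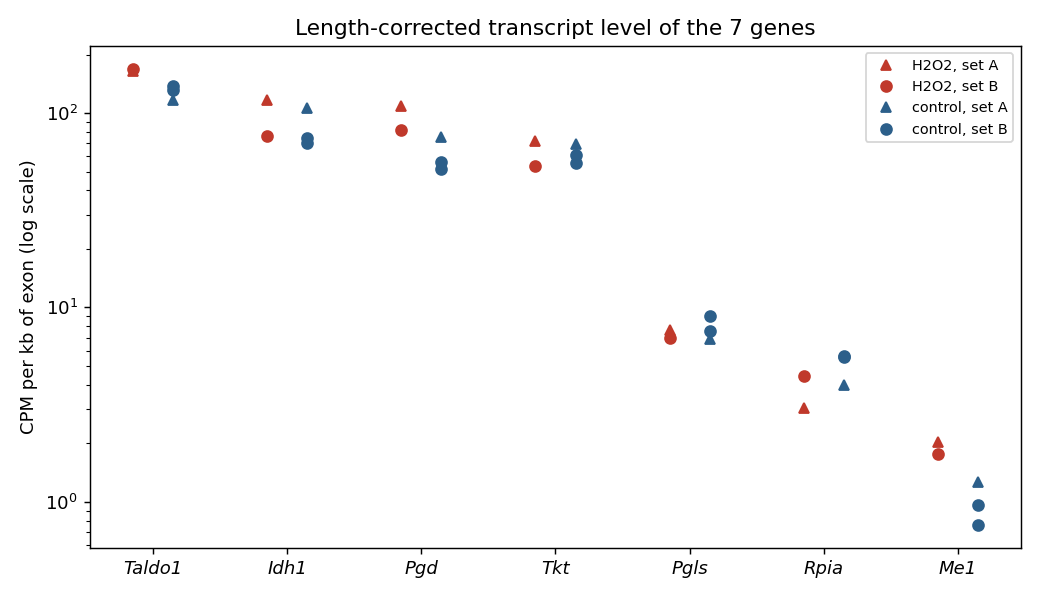
Length-corrected level of the 7 genes (CPM per kb of exon, log axis) in the 2 H2O2 libraries and the 3 control libraries, ordered by the mean over libraries, with triangles for set A and circles for set B. The 4 genes with means of 62.1 and above stand apart from Pgls, Rpia and Me1.

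The profiles over the 5 libraries were compared as the root-mean-square difference of log2 CPM, each gene centred on its mean. Among the 7 genes, Tkt and Idh1 were the closest pair (0.158), and Rpia and Me1 the farthest (0.814). Pgd and Me1 differed by 0.208. Among 8685 other genes that averaged 10 CPM or more, those nearest to Taldo1 were Gfpt1, the first enzyme of the hexosamine pathway (0.0191), and Cd68, a lysosomal glycoprotein of myeloid cells (0.0302). Tatdn2 (0.112) and Il1f9, an interleukin-1 family cytokine gene (0.115), were nearest to Me1. Supt7l (0.0281) and Cul7, a cullin gene (0.0337), were nearest to Idh1. These distances describe 5 libraries, which share the split into sets.

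The start regions of the 7 genes are shown where they hold the core of the antioxidant response element, the sequence that NRF2 binds with small MAF proteins. The core was searched as TGACNNNGC on both strands, from 250 bases before to 50 after each RefSeq start (GRCm38.p6). It was found in 2 of the 10 windows of the 7 genes, against 12.4% of all 32851 windows of that length. The windows belong to Me1 and an alternative start of Pgd, which lies within the annotated gene. The window at the outer start of Pgd had no match. Capitals mark the core in the stretch from 85 bases before to 15 after each start, 5′ to 3′ on the gene's strand, which is the minus strand in each case.
Me1, chr9:86695900-86695999: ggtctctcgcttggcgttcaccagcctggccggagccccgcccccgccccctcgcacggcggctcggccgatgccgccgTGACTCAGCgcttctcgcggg
Pgd, alternative start, chr4:149166068-149166167: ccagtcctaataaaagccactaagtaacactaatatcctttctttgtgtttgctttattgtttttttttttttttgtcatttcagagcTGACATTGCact
In Me1 the match spans the start, from 6 bases before it to the third base after it, and also holds the AP-1 motif TGACTCA, which was found in 5.2% of all windows and in no other window of the 7 genes. In Pgd the match lies 4 to 12 bases after the alternative start. The bases just before that start, a run of t that leads to cag, have the form of an intron end. The site may thus be the edge of an internal exon rather than a promoter, and whether transcription starts there was not tested. Taldo1 had no match in its window, and neither had Pgls, Tkt, Rpia or Idh1. The GC box GGGCGG, on either strand, was found in 8 of the 10 windows of the 7 genes and in 35.7% of all windows. Counts per gene do not tell which start was used.

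Of 12 tested genes among 16 others of the pentose phosphate pathway, 1 fell and none rose, with a median log2 change of -0.01, against 0.01 over all tested genes. The gene that fell was Prps1, which makes phosphoribosyl pyrophosphate from ribose 5-phosphate. It had 50.8 and 34.3 CPM in H2O2 replicates 1 and 2, against 78.9, 42.5 and 44.3 CPM in control replicates 1, 2 and 3 (log2 -0.47 ± 0.092 SE, adjusted p = 0.0311 by edgeR). Each H2O2 library was below the controls of its set, though the groups overlapped. Its close relative Prps1l3, with which it may share reads, stood at -0.06 ± 0.117. Rpe, the epimerase beside Rpia and the most abundant of the list, stood at 0.15 ± 0.087. Tigar, which diverts glucose towards the pathway, stood at 0.12 ± 0.099. The list had 2 calls without control replicate 1, and none without control replicate 3, without H2O2 replicate 2, without the term for the set or with no filter.

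In a list of 16 genes of other NADPH sources, NAD kinases and linked steps, all tested, 1 rose and 2 fell (median log2 change -0.03). The list includes Acly, Slc25a1, Mdh1 and Mthfd1l, which do not themselves make NADPH and were not called. Mthfd2, a mitochondrial folate dehydrogenase that uses NAD+ or NADP+, had 143.1 and 126.2 CPM in H2O2 replicates 1 and 2, against 222.8, 221.9 and 216.3 CPM in control replicates 1, 2 and 3. The controls lay close together and well above both H2O2 libraries, and Mthfd2 fell by 0.73 ± 0.073 (SE) on the log2 scale (adjusted p = 0.00966 by edgeR). Aldh1l2, the mitochondrial 10-formyltetrahydrofolate dehydrogenase that makes NADPH, fell by 1.15 ± 0.228 (adjusted p = 0.0322 by edgeR). It was scarce, at 1.48 and 3.17 CPM in H2O2 replicates 1 and 2, against 2.38, 8.88 and 7.62 CPM in control replicates 1, 2 and 3. Aldh3a1, an aldehyde dehydrogenase that can use NADP+, rose by 0.54 ± 0.110 (adjusted p = 0.0341 by edgeR), with 47.8 and 43.1 CPM in H2O2 libraries, against 31.3, 34.2 and 27.5 CPM in controls. The mitochondrial relatives of Me1 and Idh1 were not called: Me2 stood at -0.32 ± 0.081 (adjusted p = 0.0587 by edgeR) and Idh2 at -0.27 ± 0.094 (adjusted p = 0.120 by edgeR). Acly, the citrate lyase and most abundant of the list, stood at 0.06 ± 0.069, and Nadk, the cytosolic NAD kinase, at 0.03 ± 0.068. The list had 6 calls without control replicate 1, 1 without control replicate 3, none without H2O2 replicate 2 or without the term for the set, and 1 with no filter.

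Of 25 enzymes that spend NADPH, all tested, 6 rose and none fell (median log2 change 0.18; 0.23 within set A and 0.16 within set B). Nqo1, a quinone reductase, had 67.5 and 32.1 CPM in H2O2 replicates 1 and 2, against 30.6, 12.7 and 13.7 CPM in control replicates 1, 2 and 3 (log2 1.22 ± 0.088 SE, adjusted p = 0.00440 by edgeR). Ptgr1, a prostaglandin reductase, had 123.9 and 114.1 CPM in the H2O2 libraries, against 68.4, 77.3 and 78.0 CPM in the controls (log2 0.68 ± 0.087 SE, adjusted p = 0.0162 by edgeR). Hmox1, the haem oxygenase gene, was also among the 6, with 578.3 and 392.9 CPM in the H2O2 libraries, against 268.5, 192.9 and 163.3 CPM in the controls (log2 1.13 ± 0.086 SE, adjusted p = 0.00501 by edgeR). In these 3 genes the H2O2 libraries did not overlap the controls. Akr1a1, an aldehyde reductase and the most abundant of the list, rose by 0.51 ± 0.076 (adjusted p = 0.0213 by edgeR), and Por and Nos2 were the remaining calls. Gsr, the glutathione reductase gene, stood at 0.18 ± 0.071 (adjusted p = 0.150 by edgeR) with both H2O2 libraries above the controls. Of the superoxide-making oxidase, neither Cybb nor the subunits (Cyba, Ncf1 and Ncf4) were called, with log2 values between -0.20 and 0.24. The list had 3 calls without control replicate 3 or with no filter, and none without H2O2 replicate 2 or without the term for the set.

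**Figure D4:**
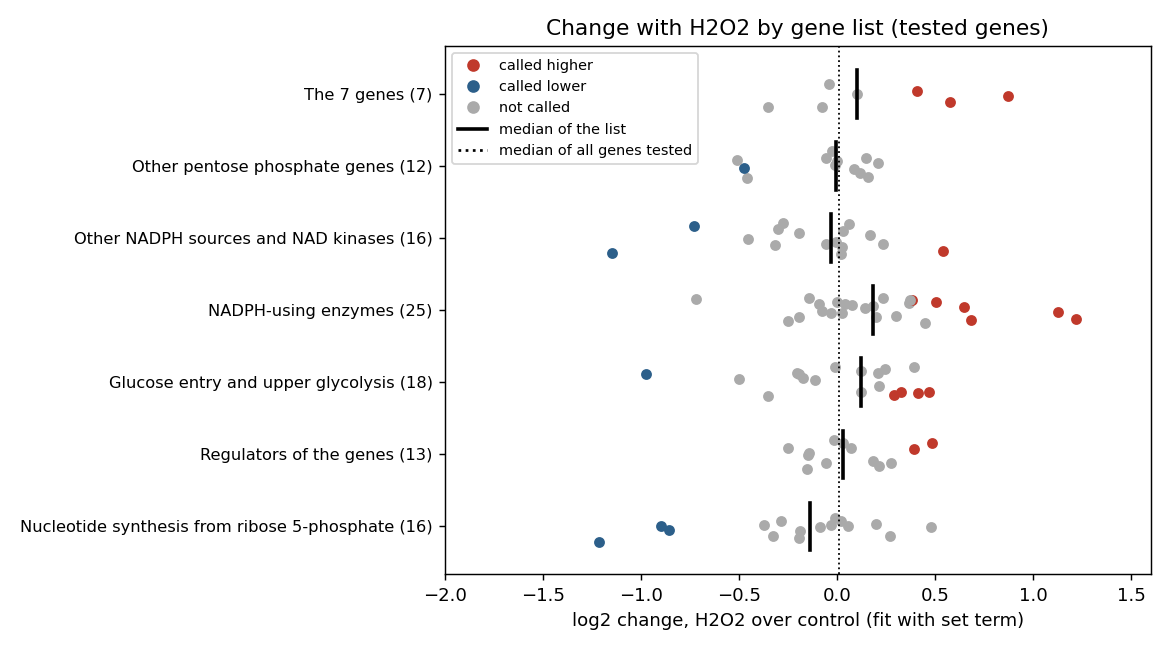
Log2 change with H2O2 over control (horizontal axis) of the tested genes of each list, with the number of genes in parentheses, called genes in colour, a bar at each list's median and a dotted line at the median of all tested genes. The 7 genes have a median of 0.10 and the NADPH-using enzymes 0.18; the 3 called genes of nucleotide synthesis lie at -0.86 and below.

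In glucose entry and glycolysis down to Gapdh, 4 of 18 tested genes rose and 1 fell (median log2 change 0.12). Of this list only the glucose transporters and hexokinases act before glucose 6-phosphate, where the pathway leaves glycolysis. The hexokinase gene Hk3 rose by 0.47 ± 0.076 (SE), Pfkl, a phosphofructokinase subunit, by 0.41 ± 0.074, the glucose transporter gene Slc2a1 by 0.33 ± 0.069 and Tpi1, the triose phosphate isomerase, by 0.29 ± 0.066, with adjusted p-values of 0.0238, 0.0259, 0.0380 and 0.0451 by edgeR. Each H2O2 library was above the controls of its own set in all 4 genes. The transporter gene Slc2a3 fell by 0.98 ± 0.224 (adjusted p = 0.0455 by edgeR) and was scarce, at 4.61 and 7.25 CPM in H2O2 libraries, against 6.63, 14.9 and 19.9 CPM in controls. Gpi1, whose enzyme converts glucose 6-phosphate to fructose 6-phosphate, stood at 0.12 ± 0.067, and Gapdh, the most abundant of the list, at 0.12 ± 0.066. Among 13 tested regulators of these genes (transcription factors and their partners), 2 rose and none fell (median 0.03). Mafk, a small MAF partner of NRF2, rose by 0.48 ± 0.106 (adjusted p = 0.0406 by edgeR), and Sqstm1, which sequesters the NRF2 inhibitor KEAP1, by 0.39 ± 0.084 (adjusted p = 0.0383 by edgeR). Nfe2l2, the NRF2 gene, had 318.5 and 357.4 CPM in H2O2 libraries, against 288.3, 285.6 and 266.4 CPM in controls (log2 0.28 ± 0.080 SE, adjusted p = 0.0805 by edgeR), and Keap1 stood at 0.03 ± 0.082. Neither list had a call without control replicate 3, without H2O2 replicate 2, without the term for the set or with no filter. Without control replicate 2 the lists had 2 and 1 calls, and the regulators had 4 without control replicate 1.

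Downstream of the pathway, 3 of 16 tested genes of nucleotide synthesis fell and none rose (median log2 change -0.14). They were Rrm2 (-1.22 ± 0.182 SE), Tyms (-0.90 ± 0.120) and Rrm1 (-0.86 ± 0.158), which make deoxynucleotides, with adjusted p-values of 0.0213, 0.0177 and 0.0273 by edgeR. Rrm2 had 40.0 and 17.6 CPM in H2O2 replicates 1 and 2, against 88.5, 33.7 and 51.8 CPM in control replicates 1, 2 and 3. Paics, a purine synthesis enzyme and the most abundant of the list, stood at -0.29 ± 0.070 (adjusted p = 0.0527 by edgeR). All 10 markers of dividing cells fell in the same fit, and their summed level was 365.4 and 180.7 CPM in H2O2 replicates 1 and 2, against 1111, 332.4 and 602.7 CPM in control replicates 1, 2 and 3. Their part in the changes of Rrm1, Rrm2, Tyms and Rpia was not tested. The list had 5 calls without control replicate 1 and none without H2O2 replicate 2, without the term for the set or with no filter.

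Markers of dendritic cells and of other cell types also moved with H2O2. Of 11 tested dendritic cell markers 6 fell and none rose, with a summed level of 7648 and 8719 CPM in H2O2 libraries, against 9357, 10085 and 9675 CPM in controls, while Itgax stood at 0.06 ± 0.076 on the log2 scale. Of 11 tested macrophage and monocyte markers 1 rose and 2 fell, with sums of 3791 and 3686 CPM in H2O2 libraries, against 3412, 3305 and 3228 CPM in controls. The one that rose was Cd68, among the genes nearest to Taldo1 in profile. Those that fell were C1qb and C1qc, both scarce, at 19.7 CPM or less in every library. Most of each sum was Lyz2, which was not called, at 2351 and 2164 CPM in H2O2 libraries, against 1959, 1932 and 1855 CPM in controls. Of 8 markers of mast cells and basophils 5 fell (sums of 11.3 and 26.9 CPM in H2O2 libraries, against 34.8, 59.4 and 85.5 CPM in controls). The genes that fell, Prss34, Mcpt8, Fcer1a, Ms4a2 and Cpa3, were near the floor in H2O2 libraries, each at 2.53 CPM or less. Kit, Gata2 and Hdc, which were not called, made up most of the sums in H2O2 libraries. Of 11 tested neutrophil markers 3 fell and 1 rose, with sums of 964.1 and 1820 CPM in H2O2 libraries, against 556.9, 1149 and 1312 CPM in controls. Most of each sum was Mmp8, the one that rose, at 844.6 and 1236 CPM in H2O2 libraries, against 431.7, 783.6 and 697.4 CPM in controls. Those that fell were Mpo, Ctsg and Cxcr2. Of 5 eosinophil markers 3 fell and 1 rose. Their sums ordered by set, at 133.9 CPM in H2O2 replicate 1 and 201.6 CPM in control replicate 1, and at most 46.6 CPM in set B. Most of each sum in set A was Ear2, which was not called, at 101.9 CPM in H2O2 replicate 1 and 143.1 CPM in control replicate 1. Of the called genes, Siglecf was higher in set A, whereas Prg2, Epx and Ear6 were lower there. The part of the markers of all these cell types in the changes of Pgd, Taldo1 and Me1 was not tested.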

How the data were processed

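The deposited files hold estimated counts of reads per gene, 1 file per sample; the authors made them without normalization as far as the values show, and per the file headers each column is a read count. Between 8.38% and 9.03% of values in a library were not whole, though all 35 values of the 7 genes were. HISAT, Bowtie2 and GRCm38.p6 are named in the submitters' processing notes, without roles or versions. Not given in the sources used here: counter, annotation release and strand setting. RefSeq's gene table of the same build matched 17520 of 17567 rows. Exon lengths came from GENCODE on GRCm38 and start regions from RefSeq.

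Counts were rounded to whole numbers and filtered with edgeR's filterByExpr (minimum count 10, minimum total 15). Genes were tested with edgeR's quasi-likelihood test, with a term for the set (at least 100 counts over 4 Y-linked genes in set A) and 2 residual degrees of freedom. Standard errors are the absolute log2 change over the square root of F. Within-set differences used log2 CPM with a prior count of 2 and carry no test. Versions were edgeR 4.0.16, DESeq2 1.42.0 and limma 3.58.1 under R 4.3.3. The rule also chose 1 gene that is not reported here. The members, lists, set term and naming rule were chosen with earlier results of these data known. The rule names all 7 genes and, per list, the called genes (the 3 with the lowest p where over 5) and the most abundant, with the 2 nearest profiles for 3 of the 7; Tigar, Prps1l3, Me2, Idh2, Nadk, Gsr, Gpi1, Nfe2l2, Keap1 and the oxidase subunits were named for their roles, after values were seen.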

Additional observations from a re-analysis of the deposited data

How the results depend on the processing

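Against 1043 genes and 3 of the 7 called, edgeR without the term for the set called 0 and 0, and without the filter 102 and 1. Counting the third H2O2 file as its own library gave 2820 genes and 4 of the 7. Leaving out 1 library at a time gave between 1 and 2064 genes and between 0 and 3 of the 7; without either library of set A, the fit rests on set B alone. Without H2O2 replicate 2, set B holds only controls, and the H2O2 change rests on H2O2 replicate 1 against control replicate 1. With DESeq2 size factors or limma-voom the 3 genes were called, and DESeq2 called 2 of them. Pgd, Taldo1, Me1 and Idh1 kept a positive and Rpia a negative change under all 13 alternatives. Pgls lay between -0.27 and 0.16 and Tkt between -0.12 and 0.0537 with 1 library left out. Tkt was 0.0226 without the term for the set. The causes were not tested.

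The labels do not say whether equal replicate numbers pair a control with an H2O2 sample. A replicate block in place of the set term, with 1 residual degree of freedom, called 554 genes and 1 of the 7, with Tkt at 0.00513. Pgd was still called, and the calls of Taldo1 (log2 0.41, adjusted p = 0.0651 by edgeR) and Me1 (log2 0.77, adjusted p = 0.0686) were lost. The block also parts the sets. With 2 H2O2 libraries, their deviations from the group mean mirror each other, so correlating deviations could not show whether the numbers pair the samples. With 2 H2O2 and 3 control libraries, and Me1 at 132 counts or fewer, small changes could not be separated from the spread.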
